A study of Mus musculus with 6 samples.

Results

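The proteasome genes measured here comprised 46 genes of the core particle, its regulatory cap, its activators, its inhibitor and its assembly chaperones. They were found in the liver arrays of 6 mice as the probe sets that the platform annotation gives exactly 1 symbol beginning with Psma, Psmb, Psmc, Psmd, Psme, Psmf or Psmg followed by a digit. This rule matched 85 of the 22626 probe sets analysed, under 48 symbols. The symbols Psmc3ip and Psme3ip1 match the letters of the rule but name binding partners, so they were left out of the counts of proteasome genes. Of the 46 genes, 45 passed the filter on dim signals, and Psma8, an alpha subunit known from mouse testis, did not, with signals of 52.2, 58.4 and 28.6 in the BPD livers, against 97.8, 61.5 and 48.7 in the GFP livers. Psme2 was an intended member, but its probe set also names Psme2b, so no value is given for it, and no probe set is named here for the thymus subunit Psmb11.

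RNA came from 3 livers of mice given Ad-BPD (mice 23, 28 and 36) and 3 livers of mice given Ad-GFP (mice 22, 29 and 31). Ad-BPD is an adenovirus that carries a form of PFK-2/FBPase-2, the enzyme that makes and removes fructose 2,6-bisphosphate, without its bisphosphatase activity, and Ad-GFP carries green fluorescent protein. All mice were males of the obese, diabetes-prone strain KK/H1J, aged 12 to 14 weeks by their age labels (the free-text description of BPD mouse 28 gives a lower bound below 12), weighing about 35 g, housed singly with free access to food, and the virus went into the tail vein at the same stated dose in both groups. The livers were taken 7 days later, so every animal had received a virus and there was no uninjected group. The promoter of the transgene is not given in the sources used here. No probe set is named Pfkfb1, the liver form of the enzyme, so the transgene was not checked in the data.

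The proteasome is the barrel that degrades ubiquitin-tagged proteins in the cytosol and nucleus. Its core particle is a stack of rings of alpha and beta subunits, with the cutting sites in Psmb5, Psmb6 and Psmb7. The regulatory cap, built from Psmc ATPases and Psmd subunits, recognises the ubiquitin tag and feeds the unfolded protein into the core. Interferon induces 3 alternative cutting subunits, Psmb8, Psmb9 and Psmb10, which replace Psmb5, Psmb6 and Psmb7 during assembly to form the immunoproteasome, and the activator PA28, made of Psme1 and Psme2. These forms favour peptides that suit loading on MHC class I. They are abundant in cells of the immune system, while hepatocytes at rest carry mostly the constitutive form.

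The promoters of the immune forms Psmb8, Psmb9 and Psme1 and of the constitutive Psmb5 are shown because interferon and stress factors are known to act through short elements near such start sites. Each is the RefSeq window of assembly GRCm38.p6 that runs 250 bases before to 50 bases after the start of the gene, given 5′ to 3′ on the strand of the gene, with the matched letters in capitals. The letters searched on both strands were GAAA, any 2 bases and GAAA, the core of an interferon response element, TTCNNNGAA, the gamma-activated element, TGACNNNGC, the core of an antioxidant response element, and CCAAT, and matches to different motifs could overlap. In Psmb8 (chr17:34197945-34198244, plus strand) the capitals mark TTCNNNGAA. In Psmb9 (chr17:34187281-34187580, minus strand) they mark CCAAT read on the other strand. In Psme1 (chr14:55578244-55578543, plus strand) they mark the interferon response element core on the other strand, past the start site. In Psmb5 (chr14:54617946-54618245, minus strand) they mark TGACNNNGC.
Psmb8: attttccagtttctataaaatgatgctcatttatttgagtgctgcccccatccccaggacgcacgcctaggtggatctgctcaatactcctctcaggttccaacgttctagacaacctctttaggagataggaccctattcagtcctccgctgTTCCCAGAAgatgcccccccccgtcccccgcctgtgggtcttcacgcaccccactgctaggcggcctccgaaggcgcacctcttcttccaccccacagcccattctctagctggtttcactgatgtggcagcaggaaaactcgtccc
Psmb9: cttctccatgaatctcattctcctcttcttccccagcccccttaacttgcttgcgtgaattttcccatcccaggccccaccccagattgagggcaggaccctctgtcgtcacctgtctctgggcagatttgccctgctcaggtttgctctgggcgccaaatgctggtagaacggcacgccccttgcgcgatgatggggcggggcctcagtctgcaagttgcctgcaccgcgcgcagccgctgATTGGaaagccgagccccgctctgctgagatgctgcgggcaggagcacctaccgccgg
Psme1: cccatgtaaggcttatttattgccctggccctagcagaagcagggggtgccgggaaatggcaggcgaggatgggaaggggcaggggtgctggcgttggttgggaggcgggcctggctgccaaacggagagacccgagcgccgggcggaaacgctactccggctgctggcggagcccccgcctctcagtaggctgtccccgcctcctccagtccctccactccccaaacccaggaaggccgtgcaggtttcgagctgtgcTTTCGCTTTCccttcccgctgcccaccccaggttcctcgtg
Psmb5: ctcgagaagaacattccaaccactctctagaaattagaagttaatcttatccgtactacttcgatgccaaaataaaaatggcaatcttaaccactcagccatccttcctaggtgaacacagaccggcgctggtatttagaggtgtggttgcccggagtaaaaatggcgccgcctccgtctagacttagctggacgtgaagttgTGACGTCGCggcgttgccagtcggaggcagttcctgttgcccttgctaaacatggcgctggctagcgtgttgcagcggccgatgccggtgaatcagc
Over all 32851 windows of the table, the interferon response element core occurred in 3.44%, TTCNNNGAA in 8.30%, TGACNNNGC in 12.4% and CCAAT in 37.4%. Windows were given for 38 of the proteasome genes, and they held these motifs in 5, 3, 6 and 13 genes in the same order of motifs. The Psmb10 window held none of the 4. In the gene order of the same assembly Psmb9 lies between H2-DMb1 and Tap1, and Psmb8 between Tap1 and Tap2, on chromosome 17, while Psme1 lies next to Emc9 on chromosome 14 with Psme2 on the other side of that gene.

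Each array gave 1 signal per probe set, and the number of arrays limits the precision. The deposited signals of all arrays had been scaled to the same trimmed mean (495 to 497), yet their medians ran at 174 to 197 in the BPD livers and 135 to 157 in the GFP livers. Values were therefore taken as log2(signal + 16.3) and centred on the median of each array, and calls among proteasome genes are also given for the deposited scaling and after quantile normalization. The median difference over all 8151 genes tested was −0.22 after centring, 0.08 with the deposited scaling and −0.06 after quantile normalization, so a shift of a proteasome gene is best read against these values. The ratio of the 3′ to the 5′ Gapdh probe sets, a sign of RNA integrity, was 0.735 to 0.863 in BPD livers and 0.785 to 0.900 in GFP livers. Hepatocyte transcripts were abundant in every liver, with Alb at 14784 to 17081 in BPD livers and 17975 to 21340 in GFP livers.

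The immune cutting subunits varied most between livers among the proteasome genes tested, while the median differences of the constitutive core and cap lay within 0.20 of that of all genes under each scaling. In deposited signal, the 4 measured immune forms averaged higher in BPD livers, but none was called after centring in the limma test at an adjusted p under 0.05, and none had an unadjusted p under 0.05 (0 of 4, against 8.75% of all genes called higher and 22.1% called lower). Psme1 was called higher in BPD livers with the deposited scaling and after quantile normalization, and 3 of the 4 had an unadjusted p under 0.05 in each. No share of all genes at an unadjusted p under 0.05 is given here, and it is at least as large as the share called. Counts at an unadjusted p, here and below, therefore cannot be judged against all genes. The median difference of the immune forms lay 0.53 above that of all genes after centring and with the deposited scaling, and 0.69 above it after quantile normalization. Of the constitutive genes, 3 of 14 core and 3 of 17 cap genes were called lower after centring, shares near the 22.1% of all genes. The core gave 0 calls (1 gene at an unadjusted p under 0.05) with the deposited scaling, where 17.2% of all genes were called higher and 11.1% lower. After quantile normalization, where 12.7% were called higher and 12.9% lower, 1 core gene was called, and higher. The cap gave 0 calls under both, with 4 of 17 genes at an unadjusted p under 0.05 in each. Markers of immune cells differed between the groups too, with macrophage markers summing to 19893 to 36991 in BPD and 4375 to 16761 in GFP livers. In whole liver, a change in the number of cells of a type and a change in RNA per cell cannot be told apart.

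**Figure D1:**
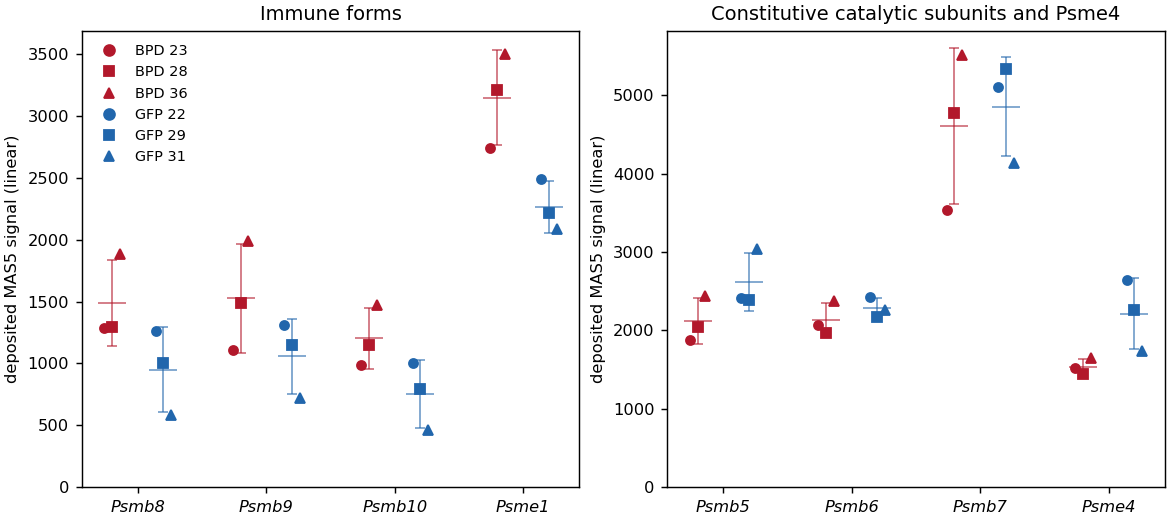
Deposited signal of the immune forms, their constitutive counterparts and PA200 (Psme4) in each liver, BPD livers in red at the left and GFP livers in blue at the right of each pair. Psme1 and Psmb8 are higher in all 3 BPD livers than in any GFP liver, and GFP mouse 31 is the lowest liver for each of the 4 immune forms.

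Psmb8, the interferon-induced counterpart of Psmb5, had signals of 1287, 1292 and 1886 in BPD livers 23, 28 and 36, against 1262, 1002 and 580.2 in GFP livers 22, 29 and 31. No GFP liver reached the lowest BPD liver, but mouse 22 came within a few percent of the lowest BPD livers and mouse 31 stood far below the rest. The BPD livers averaged 1488 ± 345 and the GFP livers 948 ± 344 (SD, n = 3 each; errors of all signal means below are SDs over 3 livers). The log2 difference after centring was 0.39 ± 0.30 (SE) and did not pass, with an adjusted p of 0.346 in limma. It was 0.69 with the deposited scaling (adjusted p = 0.108) and 0.65 after quantile normalization (adjusted p = 0.12). After centring, it was 0.08 without GFP mouse 31, 0.18 without BPD mouse 36, 0.67 without GFP mouse 22 and 0.18 with the Gapdh ratio as a covariate.

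Psmb9, the counterpart of Psmb6, had signals of 1104, 1489.6 and 1987 in the BPD livers, against 1309.8, 1145 and 720.3 in the GFP livers. The groups overlapped, since BPD mouse 23 lay below GFP mice 22 and 29. Its means were 1527 ± 443 in BPD and 1059 ± 304 in GFP livers, and the log2 difference was 0.22 ± 0.27 after centring (limma adjusted p = 0.561). It was 0.53 with the deposited scaling (adjusted p = 0.187) and 0.50 after quantile normalization (adjusted p = 0.208). After centring, it turned to −0.02 without GFP mouse 31, −0.01 without BPD mouse 36 and −0.03 with the Gapdh ratio as a covariate.

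Psmb10, the counterpart of Psmb7, had signals of 986, 1152 and 1470.0 in the BPD livers, against 1003, 793 and 461 in the GFP livers. The groups overlapped by a small margin, with GFP mouse 22 just above BPD mouse 23. Its means were 1203 ± 246 in BPD and 752 ± 273 in GFP livers. The log2 difference was 0.41 ± 0.29 after centring (limma adjusted p = 0.296), 0.71 with the deposited scaling (adjusted p = 0.0922) and 0.65 after quantile normalization (adjusted p = 0.112). After centring, it was 0.11 without GFP mouse 31, 0.24 without BPD mouse 36, 0.70 without GFP mouse 22 and 0.18 with the Gapdh ratio as a covariate.

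Psme1, the alpha subunit of PA28, had signals of 2739, 3211 and 3500.2 in the BPD livers, against 2495, 2213 and 2086 in the GFP livers. The groups did not overlap in signal, and the spread was smaller than for the cutting subunits. The means were 3150.2 ± 384 in BPD and 2265 ± 209 in GFP livers. The log2 difference was 0.17 ± 0.17 after centring and did not pass (limma adjusted p = 0.474). It passed with the deposited scaling, at 0.47 (adjusted p = 0.037), and after quantile normalization, at 0.61 (adjusted p = 0.0158). With 1 mouse left out the difference after centring ran between 0.07 (without BPD mouse 36) and 0.28 (without GFP mouse 22).

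Of the constitutive cutting subunits, Psmb5 alone was called lower, and only after centring. Psmb5, the chymotrypsin-like subunit, had signals of 1872, 2037 and 2442 in the BPD livers, against 2414, 2382 and 3040.2 in the GFP livers. The groups overlapped in signal, with BPD mouse 36 above GFP mice 22 and 29. It was called lower after centring, with a log2 difference of −0.60 ± 0.18 (limma adjusted p = 0.0372). The difference was −0.30 with the deposited scaling (adjusted p = 0.185) and −0.19 after quantile normalization (adjusted p = 0.385).

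Psmb6, the caspase-like subunit, had signals of 2062, 1966 and 2369 in the BPD livers, against 2423, 2167 and 2255 in the GFP livers. Its log2 difference was −0.40 ± 0.17 after centring (limma adjusted p = 0.108) and −0.10 with the deposited scaling (adjusted p = 0.6). Psmb7, the trypsin-like subunit, had signals of 3536, 4767 and 5518 in the BPD livers, against 5104, 5331 and 4131 in the GFP livers. The groups overlapped for both genes. The difference of Psmb7 was −0.39 ± 0.19 after centring (adjusted p = 0.144), −0.09 with the deposited scaling (adjusted p = 0.751) and 0.12 after quantile normalization (adjusted p = 0.666), so its sign depends on the scaling.

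A ratio of 2 probe sets on the same array does not depend on how arrays are scaled to a common level. It can change with quantile normalization. Its level depends on the probes, so only differences between livers can be read from it. For each immune subunit the log2 ratio to the constitutive subunit it replaces was taken per liver, and 3 pairs were compared with a 2-sided exact permutation test. With 3 livers against 3 that test cannot give a p below 0.1.

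The ratio of Psmb8 to Psmb5 was −0.54, −0.65 and −0.37 in the BPD livers, against −0.93, −1.24 and −2.36 in the GFP livers. The groups did not overlap, and mouse 31 was the lowest by a wide margin. The BPD mean was −0.52 ± 0.14 and the GFP mean −1.51 ± 0.75 (SD over 3 livers), a difference of 0.99 ± 0.44 (SE), or 1.98-fold (exact p = 0.1, adjusted over the 3 pairs 0.15). Without GFP mouse 31 the difference was 0.56.

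The ratio of Psmb10 to Psmb7 was −1.82, −2.03 and −1.90 in the BPD livers, against −2.33, −2.72 and −3.12 in the GFP livers, again without overlap. The difference was 0.81 ± 0.24, or 1.75-fold (exact p = 0.1, adjusted 0.15). After quantile normalization it was 0.53 (exact p = 0.2), above the lowest possible p, so the groups overlapped there. The ratio of Psmb9 to Psmb6 was −0.89, −0.40 and −0.25 in the BPD livers, against −0.88, −0.91 and −1.62 in the GFP livers. Here BPD mouse 23 lay level with GFP mice 22 and 29, so the groups overlapped. The difference was 0.62 ± 0.31, or 1.54-fold (exact p = 0.2, adjusted 0.2), and 0.38 without GFP mouse 31.

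**Figure D2:**
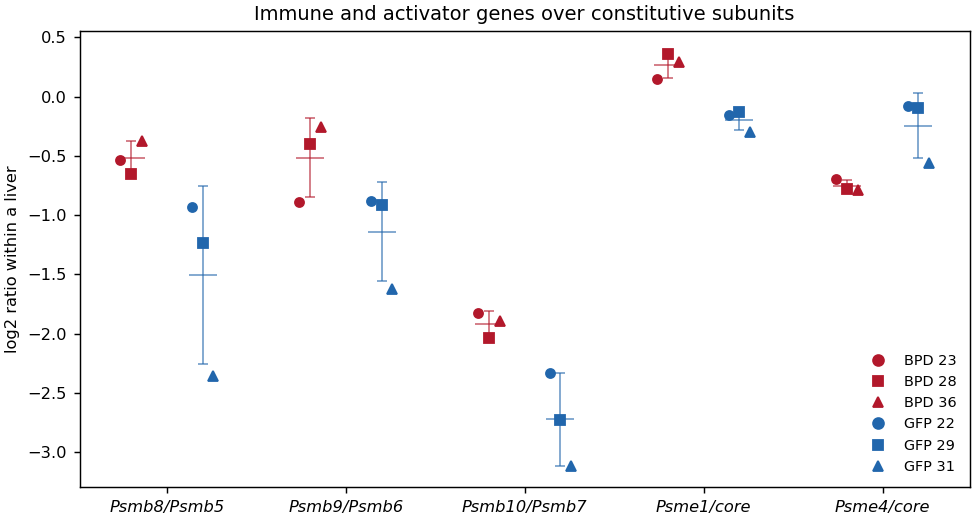
Log2 ratio of each immune subunit to the constitutive subunit it replaces, per liver, BPD livers in red at the left and GFP livers in blue at the right. The BPD and GFP livers do not overlap for Psmb8 to Psmb5 and for Psmb10 to Psmb7, and overlap for Psmb9 to Psmb6.

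Measured against the median log2 value of the core genes in the same liver, Psme1 stood at 0.15, 0.36 and 0.30 in the BPD livers and −0.16, −0.13 and −0.30 in the GFP livers. The groups did not overlap, and the difference of 0.46 ± 0.08 was larger than the spread within either group. This ratio was not tested. Psme4, the activator PA200, stood at −0.69, −0.78 and −0.79 in the BPD livers and −0.08, −0.10 and −0.56 in the GFP livers on the same measure, which put it lower in every BPD liver.

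Psme4 was the proteasome gene with the most negative difference after centring. PA200 caps the core without ATP or ubiquitin and is known in mouse testis for the breakdown of acetylated histones. Its brightest probe set, whose ID marks it as able to match more than 1 transcript, had signals of 1522, 1445 and 1641 in the BPD livers, against 2636, 2258 and 1739 in the GFP livers, with no overlap. It fell to a mean of 1536 ± 98.6 in BPD livers, against 2211 ± 450.4 in GFP livers, a log2 difference of −0.80 ± 0.20 (limma adjusted p = 0.0162). With the deposited scaling the difference was −0.50 (adjusted p = 0.057), and after quantile normalization −0.44 (adjusted p = 0.0748). Its call ended without BPD mouse 28 (adjusted p = 0.068) or without GFP mouse 22 (adjusted p = 0.0534).

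A second Psme4 probe set had signals of 814, 919 and 1118 in the BPD livers, against 1369, 1488 and 1249 in the GFP livers, and was called lower under all 3 scalings. Its log2 difference was −0.83 after centring (limma adjusted p = 0.00818), −0.53 with the deposited scaling (adjusted p = 0.0381) and −0.57 after quantile normalization (adjusted p = 0.0357). The other Psme4 probe set had signals of 1367, 1379 and 1463 in the BPD livers, against 1921, 1794 and 1201 in the GFP livers. In that probe set GFP mouse 31 was the lowest liver, the groups overlapped, and the difference of −0.49 after centring did not pass (adjusted p = 0.0964). For the other activators and the inhibitor, Psme3 differed by −0.29 and Psmf1 by −0.02 in their brightest probe sets, and neither was called. The other kept Psmf1 probe sets differed by 0.29 and 0.18 after centring and were not called. With the deposited scaling they were called higher, at 0.59 (limma adjusted p = 0.0498) and 0.48 (adjusted p = 0.0451). After quantile normalization they were not called (adjusted p = 0.202 and 0.284).

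**Figure D3:**
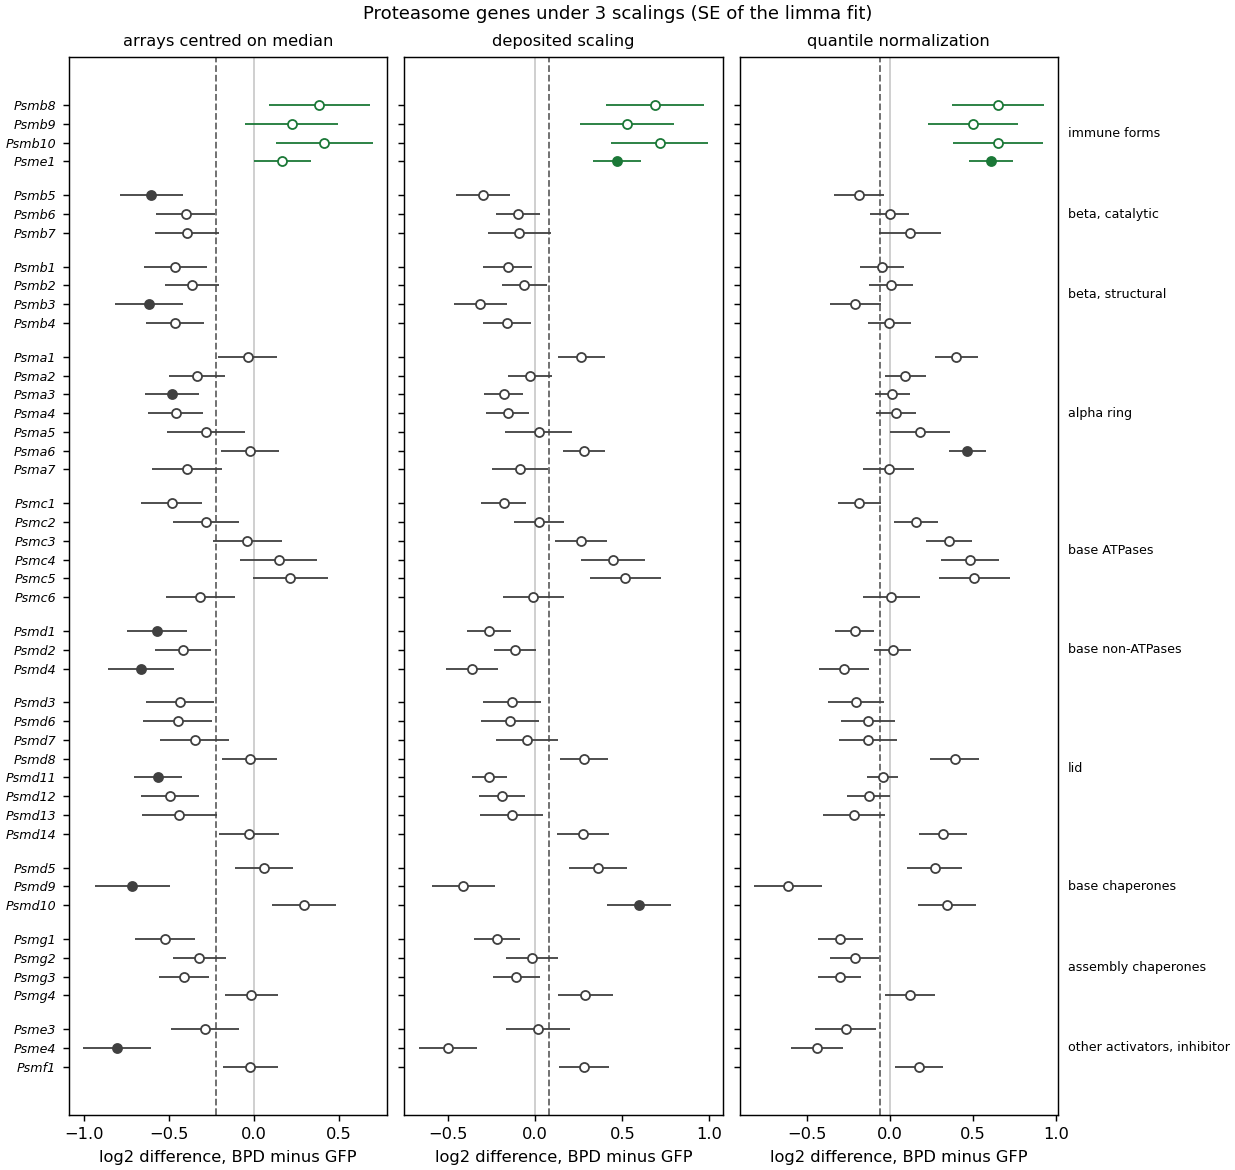
Log2 difference (BPD minus GFP, centred values, bars are SE) of each proteasome gene, immune forms in green, filled where the limma adjusted p is under 0.05, with 0 as a grey line and the median of all genes, −0.22, as a dashed line. The 4 immune forms lie right of 0 and the 8 filled genes left of it, of which Psma3 moved to 0.01 after quantile normalization.

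In the core, the 14 constitutive genes tested had a median difference of −0.40 after centring, which is −0.18 relative to all genes, and of 0.01 after quantile normalization, which is 0.07 relative to all genes. The sign of the shift of the core therefore turned with the scaling. Of the 7 alpha genes 1 was called lower after centring, Psma3, with signals of 3729, 3798 and 4169 in the BPD livers, against 4779, 4167 and 4315 in the GFP livers. BPD mouse 36 lay just above GFP mouse 29, and the difference of −0.48 (limma adjusted p = 0.0482) was 0.01 after quantile normalization (adjusted p = 0.939). Psma4 (−0.46), Psma7 (−0.39) and Psma2 (−0.33) did not pass. Over the whole core, differences after centring ran between −0.62 and −0.02, and between −0.32 and 0.28 with the deposited scaling.

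Psma6 shows how far probe sets of 1 gene can part. Its brightest probe set, whose ID marks it as able to match other transcripts, had signals of 4429, 3564 and 4001 in the BPD livers, against 3221, 3162 and 3461 in the GFP livers, and was higher in every BPD liver. It differed by −0.02 after centring and was called higher after quantile normalization, at 0.46 (limma adjusted p = 0.0194). Its other kept probe sets differed by −0.37 and 0.13 after centring, and neither passed. Kept probe sets also disagreed in call or sign for Psma7, Psmb1, Psmb3, Psmc4, Psmd11, Psmd13, Psme4 and Psmf1, which made 9 of the 17 proteasome genes with more than 1 kept probe set.

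Of the 4 structural beta genes 1 was called lower, Psmb3, with signals of 2515, 1798 and 1968 in the BPD livers, against 2789, 2376 and 2604 in the GFP livers. Its groups overlapped, with BPD mouse 23 above GFP mouse 29. Its difference was −0.62 after centring (limma adjusted p = 0.0458) and −0.21 after quantile normalization (adjusted p = 0.341). Psmb4 (−0.47), Psmb1 (−0.46) and Psmb2 (−0.36) did not pass after centring.

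In the cap, the 17 genes tested had a median difference of −0.42 after centring, which is −0.20 relative to all genes, and 0.02 relative to all genes after quantile normalization. The ATPases of the base, which unfold the substrate, held 0 of 6 calls after centring, with 1 of the 6 (Psmc1, −0.48) at an unadjusted p under 0.05, and their median lay 0.06 above that of all genes. Psmc5 had the highest signals in BPD mice 28 and 36, at 1136, 1626 and 1976 in the BPD livers, against 1124, 969 and 1129 in the GFP livers. Its groups did not overlap in signal, but mouse 23 stood only just above the GFP livers, and the difference of 0.22 after centring did not pass (limma adjusted p = 0.481). It was the top of the range of the cap, which ran between −0.66 and 0.22.

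Of the other base subunits, which are scaffolds and ubiquitin receptors, 2 of 3 were called lower after centring, beside 22.1% of all genes. Psmd1, a scaffold, had signals of 1663, 1602 and 1802 in the BPD livers, against 2225, 1866 and 2027 in the GFP livers, without overlap. Psmd4, a ubiquitin receptor, had signals of 2165, 1583 and 1743 in the BPD livers, against 2293, 2159 and 2579.6 in the GFP livers, where BPD mouse 23 lay just above GFP mouse 29. Psmd1 (−0.57, limma adjusted p = 0.0371) and Psmd4 (−0.66, adjusted p = 0.0318) were called lower after centring. The scaffold Psmd2 (−0.42) was not, and none of these 3 was called with the deposited scaling or after quantile normalization.

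Among the 8 lid genes, Psmd11 was called lower after centring. Its brightest probe set had signals of 4710.1, 4684 and 4851 in the BPD livers, against 5646, 5538 and 5927 in the GFP livers. The groups lay well apart with little spread in either, and the difference was −0.56 ± 0.14 (limma adjusted p = 0.0172). It was −0.26 with the deposited scaling (adjusted p = 0.0828) and −0.04 after quantile normalization (adjusted p = 0.758). Of its 4 kept probe sets 2 were called, and the range was −0.57 to 0.03. The lid's deubiquitinase Psmd14 differed by −0.03, and Psmd12 by −0.49 without passing (adjusted p = 0.0575). The kept probe sets of Psmd13 differed by −0.44 and 0.21, and neither was called after centring.

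Of the chaperones that build the base, Psmd9 was called lower after centring, at −0.71 (limma adjusted p = 0.0383), with signals of 415, 287 and 424 in the BPD livers, against 527, 446 and 525 in the GFP livers. Psmd10, known in human liver cancer as gankyrin, had signals of 350.2, 366 and 363 in the BPD livers, against 265, 267 and 177 in the GFP livers. For both chaperones the groups did not overlap, and they went in opposite directions in signal. Psmd10 was called higher with the deposited scaling, at 0.60 (adjusted p = 0.0451), but not after centring, at 0.29 (adjusted p = 0.264). The third of these chaperones, Psmd5, differed by 0.06. The core assembly chaperones held 0 of 4 calls after centring, with 2 at an unadjusted p under 0.05, and the largest difference was that of Psmg1, at −0.52 (adjusted p = 0.0504).

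Over all 45 genes tested, 8 were called lower and 0 higher after centring, against 22.1% and 8.75% of all genes, while 2 were called higher with the deposited scaling and 2 after quantile normalization, none lower. No gene was called under all 3 scalings in its brightest probe set. In deposited signal, 7 of the 45 were higher in every BPD liver than in any GFP liver and 5 were lower, where 27.5% and 18.2% of all genes were. The count of 8 was 0 without BPD mouse 28 or without GFP mouse 22 (7 and 9 genes at an unadjusted p under 0.05), 1 without GFP mouse 31 and 5 without BPD mouse 23. With the Gapdh ratio as a covariate it was 1, and that gene, as without GFP mouse 31, was Psme4. No share of all genes called is given for these runs, so the counts do not show a loss particular to proteasome genes.

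The immune forms also varied more over the livers than the core and the cap. From the lowest to the highest of the 6 livers, deposited signals of core genes spanned a median of 1.39-fold (range 1.20 to 1.62) and those of cap genes 1.45-fold (1.20 to 2.04). The median over all genes was 1.74-fold. The immune forms spanned a median of 2.97-fold, with Psme1 the lowest at 1.68. The SD of log2 values within a group had a median of 0.45 for the immune forms, 0.20 for the core and 0.26 for the cap, against 0.22 over all genes.

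**Figure D4:**
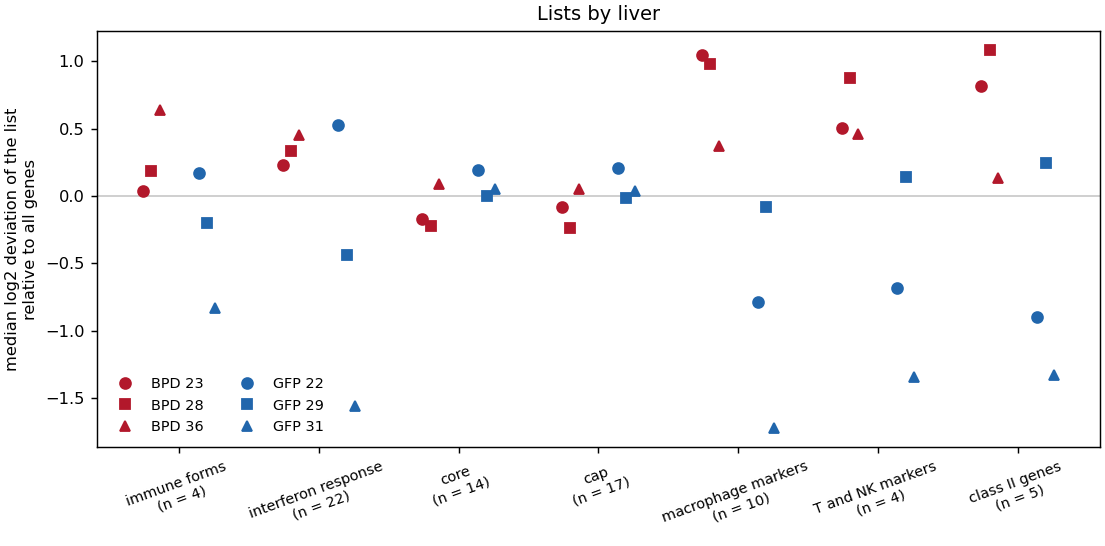
Median log2 value of each gene list in each liver, set relative to the mean over the 6 livers and to all genes, BPD livers in red at the left and GFP livers in blue at the right. The medians of the immune proteasome forms and of the interferon-response genes (proteasome members left out) have the same order of livers within each group, with GFP mouse 31 at the bottom. The core stays between −0.22 and 0.19.

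All 4 immune forms ordered the livers alike, with BPD mouse 36 highest and mouse 23 lowest among the BPD livers, and GFP mouse 22 highest and mouse 31 lowest among the GFP livers. Among all genes, 22.1% had that order of GFP livers, as had 3 of 14 core and 7 of 17 cap genes. BPD mouse 36 was the highest BPD liver in 11 of 14 core and 13 of 17 cap genes too, and in 40.1% of all genes. Of 22 tested genes of an interferon-response list without proteasome members, 16 had that order of GFP livers. In 11 of the 22 BPD mouse 36 was the highest BPD liver and in 5 the lowest, beside 40.1% and 30.0% of all genes. Relative to all genes, the median of that list was 0.23, 0.33 and 0.45 in BPD livers 23, 28 and 36, against 0.52, −0.44 and −1.56 in GFP livers 22, 29 and 31. The median of the immune forms on this measure was 0.04, 0.18 and 0.64 in the BPD livers, against 0.17, −0.20 and −0.83 in the GFP livers. GFP mouse 22 lay above every BPD liver on the interferon-response list, and above only the lowest BPD liver on the immune forms.

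Of these 22 interferon-response genes, 5 were called higher after centring and 0 lower, beside 8.75% and 22.1% of all genes. Among them were Irf8 (0.91, limma adjusted p = 0.0174), Cxcl10 (1.60, 0.0243), Oas2 (1.32, 0.0335) and Gbp2 (1.89, 0.0343). The mean of Oas2 in GFP livers lay under the filter, so it was tested only because of its level in BPD livers. Irf1, a transcription factor that binds immunoproteasome promoters, had signals of 1476, 1754 and 1449.8 in the BPD livers, against 1078, 1064 and 1003 in the GFP livers. The groups did not overlap, and the difference of 0.26 after centring (limma adjusted p = 0.218) was 0.56 with the deposited scaling (adjusted p = 0.0163) and 0.55 after quantile normalization (adjusted p = 0.0234).

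Tap1, the peptide transporter gene that lies between Psmb9 and Psmb8, had signals of 1217, 1256 and 1517 in the BPD livers, against 1072, 675 and 442 in the GFP livers. It had the same order of livers as its neighbours and no overlap between groups. Its difference was 0.63 ± 0.30 after centring (limma adjusted p = 0.14) and 0.93 with the deposited scaling (adjusted p = 0.0424), and it missed the threshold after quantile normalization, at 0.87 (adjusted p = 0.0511). Tap2, on the other side of Psmb8, differed by −0.05 after centring. Of 11 tested genes of MHC class I loading, 4 were called lower after centring and 0 higher, beside 22.1% and 8.75% of all genes. The 4 were B2m (−0.52), Calr (−0.43), H2-K1 (−0.43) and Canx (−0.43), and after quantile normalization none of these 4 was called and each was above 0. H2-K1 belongs to a family of near-identical genes, so its probe set may also read others of them. After centring, 2 of 4 kept probe sets were called for H2-K1 (−0.75 to 0.07), 2 of 2 for B2m and 1 of 3 each for Calr and Canx.

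After centring, 8.75% of all genes were called higher in BPD livers and 22.1% lower. Of 10 tested macrophage markers 7 were called higher, and differences over the list ran between −0.58 and 2.42. Class II genes summed to 8836 to 18968 in BPD and 2679 to 9171 in GFP livers (2 of 5 called higher), T and NK cell markers to 1015 to 1449.8 in BPD and 265 to 840.4 in GFP livers, and neutrophil markers to 1918 to 8002 in BPD and 537 to 795 in GFP livers. B and plasma cell markers summed to 338 to 893 in BPD and 217 to 325 in GFP livers, with 0 of 3 called and 1 of 3 at an unadjusted p under 0.05. Of these 3 genes, 1 had a mean under the filter in GFP livers and 1 in BPD livers, so these counts rest partly on dim genes. The B cell marker Ms4a1 went the other way from the sum, at −0.41 after centring. Cell division genes summed to 5960.3 to 7141 in BPD and 425 to 862 in GFP livers. In GFP livers the mean lay under the filter for 1 of the 4 T and NK cell, 3 of the 6 neutrophil and 5 of the 8 cell division genes tested, so these were tested only because of their level in BPD livers, and no calls are counted for those lists. No tested marker of these lists was listed at 0. Hepatocyte markers summed to 120320 to 134279 in BPD and 175648 to 185600 in GFP livers. After centring 11 of 11 were called lower, and 3 of 11 after quantile normalization, where 12.9% of all genes were called lower. The order of livers was not that of the immune proteasome forms: BPD mouse 36, highest for all 4 immune forms, was lowest of the BPD livers for 9 of 10 macrophage markers and 5 of 5 class II genes, and GFP mouse 29 was highest of the GFP livers for 8 of 10 and 5 of 5. GFP mouse 31 was the lowest GFP liver for 9 of 10 macrophage markers. The part of these cells in the proteasome differences was not tested.

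Genes that act with the proteasome but lie outside the symbol rule held 2 calls higher and 4 lower after centring among the 20 tested of 24 listed, beside 8.75% and 22.1% of all genes. Nfe2l2, which encodes NRF2, a transcription factor of the antioxidant response, had signals of 3783, 4688 and 3172 in the BPD livers, against 1478, 1211 and 1105 in the GFP livers. The groups lay far apart, and the difference of 1.30 ± 0.19 passed after centring (limma adjusted p = 0.00179), with the deposited scaling (1.60) and after quantile normalization (1.69). Zfand2a, an arsenite-inducible partner of the cap, rose by 0.81 in its brightest probe set (adjusted p = 0.00518). Of its 3 kept probe sets 1 was called after centring, and the range was 0.48 to 0.81.

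Ngly1, the glycanase that processes NRF1, had signals of 986, 878 and 1035 in the BPD livers, against 1630.2, 1291 and 1259.6 in the GFP livers. It was lower in every BPD liver and was called under all 3 scalings, at −0.82 after centring (limma adjusted p = 0.0136), −0.51 with the deposited scaling (adjusted p = 0.0361) and −0.55 after quantile normalization (adjusted p = 0.0316). Nfe2l1, which encodes NRF1, the factor known for raising proteasome genes when the proteasome is blocked, differed by −0.24 after centring and was not called (adjusted p = 0.389). Ube3c, a ubiquitin ligase that binds the cap, fell by 0.67 (adjusted p = 0.00926) and missed the threshold with the deposited scaling (−0.37, adjusted p = 0.0959) but not after quantile normalization (−0.50, adjusted p = 0.0341). Pomp, a maturation factor of the core, differed by −0.48 without passing (adjusted p = 0.0724). Of 9 tested genes for ubiquitin and its activation and transfer, 2 were called lower after centring, beside 22.1% of all genes, Ube2g1 (−0.56) and Ube2r2 (−0.56), and neither passed with the deposited scaling or after quantile normalization.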

How the data were processed

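Per the labels, liver RNA of 6 mice was labelled with biotin and hybridised to 1 array per mouse. The authors' deposited intensity values, 1 per probe set, were made with MAS5, per the submitters' processing notes. Those notes name no version and no target value. The labels do not say whether anything pairs the mice, and the 0 unused columns of the table mean that every column belongs to a sample.

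Of 22690 probe sets, 64 controls were left out. The platform annotation gave 20380 of the remaining 22626 a single symbol, 691 several and 1555 none. In the GRCm38.p6 gene table, 20351 were found by Entrez identifier and 0 symbols changed. From the deposited intensities log2(signal + 16.3) was computed, the constant being 10% of the median of all values, which understates differences of dim probe sets. Array medians differed 1.46-fold, over the 1.25-fold allowed, so each array was centred on its median. Probe sets whose mean over all arrays lay above the 40th percentile (a signal of 101) were kept, 13575 in all, and each gene was represented by the brightest of its kept probe sets. Groups were compared with limma 3.58.1 in R 4.3.3 (eBayes with trend, 2-sided, 4 residual degrees of freedom), with Benjamini-Hochberg adjustment over all kept probe sets and a threshold of 0.05. The script was tested on simulated data. Ratios within a liver were compared by exact permutation over samples.

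The members and lists were chosen with earlier results of these data known, and the lists are no independent evidence of a direction. All immune forms and cutting subunits are named, and of each other class or list up to 4 genes with the smallest p, members whose probe sets disagree, and Irf1, Tap1 and Pfkfb1. A further gene of that rule is not reported here. Psmc5, Psme3, Psmd10, Psmd14, Psmg1, Tap2, Nfe2l1 and Pomp were singled out after their values were seen where that rule does not name them. The alternatives were 3 scalings, the filter, the constant, robust eBayes, shared probe sets left out, the Gapdh ratio as a covariate and each mouse left out.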

Additional observations from a re-analysis of the deposited data

How the results depend on the processing

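The number of proteasome genes called was 8 after centring, all lower, against 2 with the deposited scaling (Psme1 and Psmd10, both higher), 2 after quantile normalization (Psme1 and Psma6, both higher), 5 with no filter and 1 with the Gapdh ratio as a covariate, and between 0 and 11 with 1 mouse left out. The number of core genes called was 3 after centring, against 0 with the deposited scaling, 1 after quantile normalization (Psma6, which is none of those 3), 1 with no filter, 1 with the constant 4 times as large, 0 with the Gapdh covariate and 0 to 5 with 1 mouse left out. Without shared probe sets it was 2 of 11 tested, Psma7 and Psmb1, again none of those 3. For the cap it was 3, against 0 with the deposited scaling, after quantile normalization and with the Gapdh covariate, and 0 to 3 with 1 mouse left out. For the immune forms it was 0, against 1 with the deposited scaling and 1 after quantile normalization, and 0 to 0 with 1 mouse left out. Of the 8 genes called after centring only Psma3 changed sign, to a log2 difference of 0.013 after quantile normalization. Psma6, called after quantile normalization, differed by −0.02 after centring. The cause of these changes was not tested. Shares of all genes called are given only for the 3 scalings, so counts from the other runs cannot be set against such a share. With 1 mouse left out, the difference in ratio ran between 0.56 and 1.28 for Psmb8 to Psmb5, 0.38 and 0.81 for Psmb9 to Psmb6, and 0.61 and 1.0 for Psmb10 to Psmb7. All 3 stayed positive in every alternative run. The ratios could not be taken with a second probe set, since each of these genes has 1 kept probe set. No paired analysis was possible because the groups share no mouse numbers. With 3 arrays a group, small differences of dim probe sets are not resolved, and 11.8% to 16% of signals on an array lay below the added constant.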
